A study of Mus musculus with 10 samples.

Results

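The nucleolar and RNA polymerase I genes Ncl, Npm1, Fbl, Nop56, Nop58, Polr1a, Polr1b and Ubtf were followed across sorted cells of the mouse small intestine. They were chosen by name, as 8 of the 35006 gene names in the count tables, and all 8 passed the filter on low counts. The cells came from crypts of mice that carry OSCAR, a reporter in which a Venus variant loses its fluorescence when the kinase CDK9 phosphorylates it, while mCherry from the same transcript serves as reference. A high OSCAR ratio therefore stands for low CDK9 activity by the reporter's design, and EF1a high or low stands for the total brightness of the transgene, which the EF1a promoter drives. All groups were live EpCAM+ cells, negative for Sytox Blue, from EF1a-OSCAR mice of the strain C57BL6/J, with 10000 cells sorted per population before poly-A selected sequencing with a TruSeq kit. Population P1 was OSCAR low and EF1a low, P2 was OSCAR high and EF1a low, P3 was OSCAR low and EF1a high, P4 was OSCAR medium and EF1a low, and P5 was OSCAR medium and EF1a high. Each population had 2 libraries, numbered as replicates 1 and 2, which gave 10 libraries with 3857612 to 6485823 counts on genes. The age of the mice was not given in the sources used here, and the labels do not tell which libraries share a mouse. The p-values measure the spread between these libraries, and part of that spread may be technical.

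The nucleolus forms around the repeated ribosomal RNA genes, which RNA polymerase I transcribes into a long precursor. Small nucleolar ribonucleoproteins guide the chemical modification of this precursor, and large assemblies cut and fold it into the subunits of the ribosome. Growing cells need many ribosomes, and in the crypt the stem and progenitor cells divide fast, whereas Paneth cells and mature enterocytes do not divide. Poly-A selection leaves out most ribosomal RNA, so the counts bear on the messenger RNAs of the machinery and not on its product.

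The libraries are named by their labels, and no label was changed. The study's account of which population holds the secretory cells conflicts with the labels P2 and P3, so these names stand here only for the labels of the libraries. Not every measure conflicts: the study saw low staining for Ki67 protein in cells of high OSCAR ratio in tissue sections. Mki67 RNA of the sorted cells was lowest in the libraries labelled P2, at 32.3 and 27.7 CPM. These are unlike measures. The same libraries were also highest for the Paneth marker Lyz1, at 265109 and 183581 CPM, and Paneth cells do not divide. Whether the labels are right was not tested. The libraries labelled P3 also stood apart in composition. Mitochondrial genes took 59.2% and 36.1% of their counts, against 1.04% to 5.19% in the other 8 libraries, and P3 replicate 1 was the shallowest library, with 12694 genes detected. The epithelial markers Epcam, Cdh1, Krt8, Krt18 and Vil1 were above 0 in all 10 libraries.

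Positions of the genes are given on the mm9 build of the counts, from the GENCODE annotation of NCBIM37. Ncl lies at chr1:88241294-88256030 on the minus strand and Nop58 at chr1:59741853-59768968 on the plus strand. Nop56 lies at chr2:130100166-130105049 and Polr1b at chr2:128926731-128952330, both on the plus strand. Polr1a lies at chr6:71859047-71929350 and Fbl at chr7:28954765-28964288, both on the plus strand. Npm1 lies at chr11:33052287-33063206 and Ubtf at chr11:102165874-102181056, both on the minus strand. The counts are sums over the exons of each gene.

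Because most of these genes moved together, the 120 bases before their starts are shown for 5 of them, 5′ to 3′ on the strand of the gene, from the RefSeq promoter table on GRCm38.p6. The stretches are chr1:86359456-86359575 (minus) for Ncl, chr2:130274292-130274411 (plus) for Nop56, chr1:59684886-59685005 (plus) for Nop58, chr6:71908933-71909052 (plus) for Polr1a and chr2:129100876-129100995 (plus) for Polr1b. The table had windows for 6 of the 8 genes, and none for Npm1 and Fbl.
Ncl: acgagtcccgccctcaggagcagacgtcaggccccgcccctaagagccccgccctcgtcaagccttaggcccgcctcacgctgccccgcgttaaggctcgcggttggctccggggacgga
Nop56: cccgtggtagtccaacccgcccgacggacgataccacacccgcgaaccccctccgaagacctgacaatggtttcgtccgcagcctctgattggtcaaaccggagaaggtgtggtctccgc
Nop58: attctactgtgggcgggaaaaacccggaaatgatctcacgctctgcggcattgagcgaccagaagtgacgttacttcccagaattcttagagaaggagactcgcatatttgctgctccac
Polr1a: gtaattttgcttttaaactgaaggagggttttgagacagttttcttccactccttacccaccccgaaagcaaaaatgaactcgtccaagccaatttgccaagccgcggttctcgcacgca
Polr1b: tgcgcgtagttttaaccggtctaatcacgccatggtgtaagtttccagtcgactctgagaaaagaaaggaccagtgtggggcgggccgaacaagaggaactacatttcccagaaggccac

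The windows, from 250 bases before to 50 after a start, were searched for CACGTG, the E-box that Myc binds, which reads the same on both strands. It was in 0 of the 11 windows of the 6 genes, 6 of them windows of Ubtf, and in 7.15% of all 32851 windows of the table. Counted by gene, 8.09% of 27025 symbols had it. Among the other genes of the lists given further on, 3 of the Myc family included, 21 of 113 with a window had it (18.6%). It was in 9 of 35 genes of the small subunit processome and 7 of 44 of large subunit assembly. In the whole box C/D list, the members Nop56 and Nop58 included, 0 of 9 had it, and in the box H/ACA list 0 of 5. Stretches of 46 bases around the motif, which is in capitals, are shown for 3 genes named in the results: Cd3eap at chr7:19359676-19359721 (minus), Rpf2 at chr10:40246980-40247025 (minus) and Rrn3 at chr16:13780464-13780509 (plus). The motif begins 218, 26 and 215 bases before their starts. A match is only a description of these letters, and a window without them says nothing of the factor.
Cd3eap: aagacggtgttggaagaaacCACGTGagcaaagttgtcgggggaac
Rpf2: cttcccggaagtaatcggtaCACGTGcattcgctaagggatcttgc
Rrn3: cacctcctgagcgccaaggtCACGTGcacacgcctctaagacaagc

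The comparison of P4 with P1 asks how cells of medium and low OSCAR ratio differ at low transgene brightness. Of the 8 genes, 5 were higher in P4 in edgeR's quasi-likelihood test with a threshold of 0.01 on the adjusted p, namely Polr1a, Polr1b, Nop56, Nop58 and Ncl, while 9.44% of all 13706 genes tested were higher. No member was lower, and 14.0% of all genes tested were. The median log2 fold change of the 8 genes was 1.84, beside 0.06 over all genes tested. In P2 against P4, which sets high against medium OSCAR ratio, 4 members were lower in the libraries labelled P2, namely Polr1b, Nop58, Ncl and Npm1. Over all genes tested 6.31% were lower and 14.3% were called in either direction, and the median of the members was -1.37, beside 0.05. These 2 comparisons share the P4 libraries. In sorted bulk samples, fewer cells of a type and less RNA per cell cannot be told apart.

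**Figure D1:**
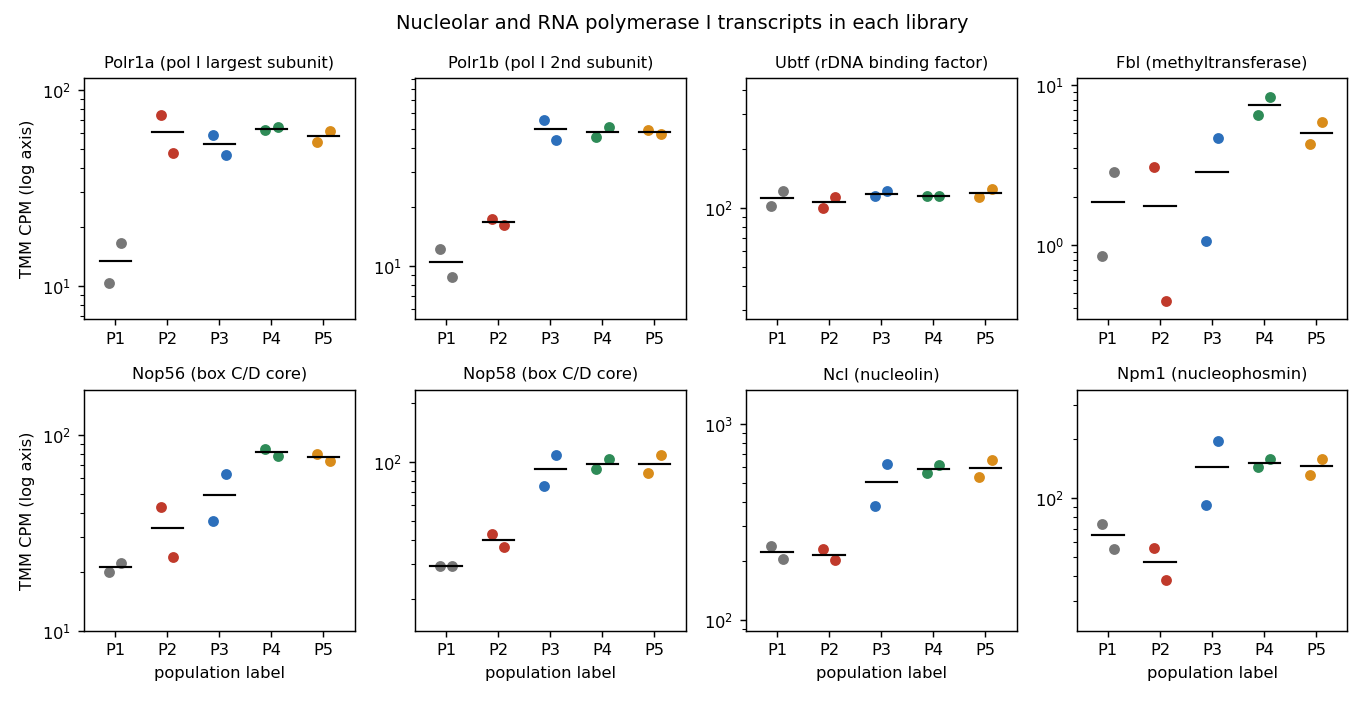
TMM-scaled CPM (counts relative to library size, log axis) of the 8 genes in each library, by population label, with lines at the population means. Polr1a was low in P1 alone, Polr1b was low in P1 and P2, and Ubtf lay between 99.7 and 124 in all 10 libraries with this scaling.

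Polr1a and Polr1b encode the largest and the second largest subunit of RNA polymerase I, which together form its catalytic centre. Levels are given as CPM, counts relative to library size after scaling by TMM, for replicates 1 and 2 in that order. Polr1a had 10.3 and 16.6 CPM for P1, 74.7 and 47.7 for P2, 58.9 and 46.6 for P3, 62.0 and 64.2 for P4, and 53.9 and 61.7 for P5. Both P1 libraries were below the other 8. By mean, the order ran from P1 through P3, P5 and P2 to P4, and neighbours from P3 upward overlapped, while both P5 libraries were below both of P4. Its log2 fold change was 2.23 (SE 0.30, adjusted p = 0.00116) in P4 against P1 and -0.05 (SE 0.28, adjusted p = 0.922) in P2 against P4. Polr1a shares 185 exon bases with Gm16601 on the opposite strand, and the counting ignored strand. Gm16601 itself had at most 13 counts in a library, but reads in the shared bases may have been left out as ambiguous.

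Polr1b had 12.2 and 8.70 CPM for P1, 17.4 and 16.1 for P2, 55.2 and 44.0 for P3, 45.2 and 51.2 for P4, and 48.9 and 46.8 for P5. P1 and P2 were each apart from all other populations, with P1 the lower, and the libraries of P3, P4 and P5 overlapped above them. The log2 fold change in P4 against P1 was 2.20 (SE 0.24, adjusted p = 0.000903), close to that of Polr1a. In P2 against P4 it was -1.53 (SE 0.23, adjusted p = 0.00200), so the subunits parted in the libraries labelled P2, where Polr1a was near its P4 level with TMM scaling and Polr1b was not. The difference between the subunits was not itself tested.

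Ubtf encodes the upstream binding factor, an HMG box protein that binds the ribosomal RNA genes and keeps them open for polymerase I. Its levels were 102 and 122 CPM for P1, 99.7 and 114 for P2, 115 and 122 for P3, 115 and 115 for P4, and 114 and 124 for P5. All neighbours in the order of means, from P2 through P1, P4 and P3 to P5, overlapped, while both P2 libraries were below those of P4 and P3. The log2 fold change was 0.04 (SE 0.18, adjusted p = 0.890) in P4 against P1 and -0.11 (SE 0.18, adjusted p = 0.706) in P2 against P4. In the test of any difference over the 5 populations its adjusted p was 0.916. A missed threshold does not show that levels were equal, and this result depends on the scaling, as given further on.

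Nop56 and Nop58 are paired core proteins of the box C/D small nucleolar ribonucleoproteins, which methylate ribosomal RNA. Nop56 had 20.0 and 22.1 CPM for P1, 42.7 and 23.9 for P2, 36.1 and 62.8 for P3, 84.3 and 78.2 for P4, and 79.6 and 73.4 for P5. P4 and P5 were above all other libraries and overlapped with each other, P2 and P3 overlapped between them, and P1 was lowest. Its log2 fold change was 1.95 (SE 0.32, adjusted p = 0.00207) in P4 against P1 and -1.30 (SE 0.31, adjusted p = 0.0143) in P2 against P4. Its exons share 242 bases with the small nucleolar RNAs SNORA51, SNORD56 and Snord57 on the same strand, and 5 bases with Idh3b on the other. These small nucleolar RNAs had at most 3 counts in a library. Reads in shared bases may have been left out as ambiguous, so low counts there do not show how many Nop56 reads were lost.

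Nop58 had 29.5 and 29.3 CPM for P1, 43.0 and 36.8 for P2, 74.9 and 109 for P3, 92.0 and 103 for P4, and 87.2 and 108 for P5. P1 was below P2 and P2 below the rest, and P3, P4 and P5 overlapped. The log2 fold change was 1.73 (SE 0.23, adjusted p = 0.00116) in P4 against P1 and -1.29 (SE 0.23, adjusted p = 0.00357) in P2 against P4. Of the 75-base windows of its transcript, 0% matched elsewhere in the genome, so no loss of its reads to copies was found.

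Fbl encodes fibrillarin, the methyltransferase of the same particles. It had only 0.847 and 2.84 CPM for P1, 3.05 and 0.446 for P2, 1.06 and 4.66 for P3, 6.51 and 8.43 for P4, and 4.24 and 5.83 for P5. The P4 libraries were above all others, and the spread within P1, P2 and P3 was wide. The log2 fold changes of 2.01 (SE 0.84, adjusted p = 0.0826) in P4 against P1 and -2.17 (SE 0.90, adjusted p = 0.102) in P2 against P4 did not pass the test. The counts were between 2 and 85 per library. Reads with several alignments were not counted, and 90.3% of the 75-base windows of the Fbl transcript (982 of 1087) have a near-identical copy elsewhere in the genome, with at most 2 mismatches, so its level is uncertain.

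Ncl encodes nucleolin, one of the most abundant nucleolar proteins, which binds the ribosomal RNA precursor. It had 238 and 205 CPM for P1, 229 and 201 for P2, 382 and 625 for P3, 559 and 619 for P4, and 535 and 649.7 for P5. P1 and P2 overlapped at the low end, and P3, P4 and P5 overlapped at the high end with no library between the 2 ranges. Its log2 fold change was 1.41 (SE 0.29, adjusted p = 0.00520) in P4 against P1 and -1.45 (SE 0.29, adjusted p = 0.00625) in P2 against P4.

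Npm1 encodes nucleophosmin, a chaperone of late ribosome assembly that shuttles to the cytoplasm. It had 74.2 and 55.2 CPM for P1, 55.8 and 38.4 for P2, 91.8 and 195 for P3, 144 and 159 for P4, and 132 and 158 for P5. Its pattern was like that of Ncl, with P1 and P2 overlapping below and the other populations overlapping above. The log2 fold change of 1.23 (SE 0.35, adjusted p = 0.0198) in P4 against P1 missed the threshold, and that of -1.69 (SE 0.36, adjusted p = 0.00771) in P2 against P4 passed it. Copies elsewhere in the genome cover 67.6% of its windows, and 39.9% of those of Nop56, so both levels are uncertain. For Polr1b the share was 3.26%, for Ncl 2.03%, for Ubtf 0.195% and for Polr1a 0%.

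Per kilobase of exon, the mean level over the populations ran from 51.4 CPM for Ncl through 41.4 for Npm1, 27.5 for Nop58, 17.4 for Ubtf and 12.8 for Nop56 to 7.55 for Polr1a, 5.95 for Polr1b and 3.27 for Fbl. In P1, Ubtf stood above Nop58, at 17.1 and 11.4 CPM per kilobase. In P4 that order was turned, at 17.5 and 37.7. Polr1a and Polr1b were close in P1, at 2.04 and 1.80 CPM per kilobase, and in P4, at 9.60 and 8.30. In P2 they were at 9.31 and 2.88. The length used was that of the merged exons of all transcripts of a gene. For Nop56 it was 4099 bases, beside 1877 in its longest coding transcript, and for Polr1b 5805 beside 3998. Reads with several alignments were not counted, so the levels of Fbl, Npm1 and Nop56 may be too low. The order of the genes by level is therefore uncertain. Together the 8 genes took 0.0337% to 0.186% of the counts of a library.

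**Figure D2:**
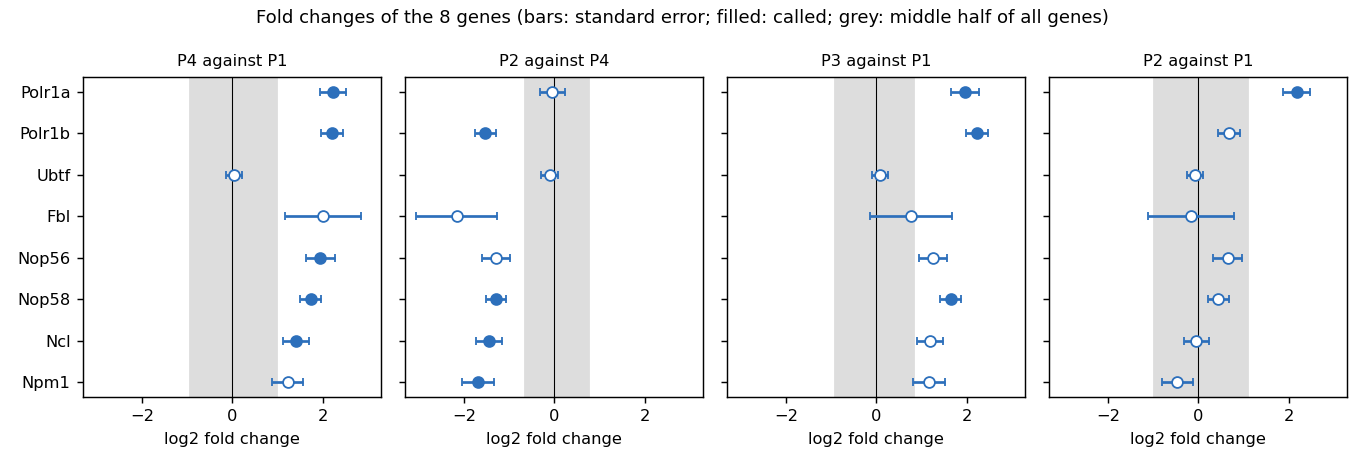
Log2 fold changes of the 8 genes in 4 comparisons, with bars of 1 standard error; filled points passed an adjusted p of 0.01 and the grey band holds the middle 50% of all genes tested. Polr1a stood at 2.23 in P4 against P1, -0.05 in P2 against P4, 1.96 in P3 against P1 and 2.18 in P2 against P1, and Ubtf ran from -0.11 to 0.08 over them with TMM scaling.

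Which libraries carried these calls was examined by leaving each out in turn. In P4 against P1 the call of all 5 members was lost without either P4 library, where 0 of all genes tested passed, and those of Ncl and Nop56 were also lost without either P1 library. All 4 calls in P2 against P4 were lost when any 1 library of P2 or P4 was left out, and those of Ncl and Npm1 also when any 1 library of P1 or P5 was. Without both libraries labelled P3, an alternative chosen after seeing the data, 6 members were called in P4 against P1 and 5 in P2 against P4, with Npm1 added to the first and Nop56 to the other. The genes called also became more, from 3214 to 4441 and from 1962 to 2825. DESeq2 called 6 and 5 members in the same comparisons, among 4398 and 3105 genes.

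P2 against P1 sets high against low OSCAR ratio at low transgene brightness, and here Polr1a was the 1 member called. It rose in P2, with a log2 fold change of 2.18 (SE 0.30, adjusted p = 0.000653), while 13.9% of all genes tested were higher. Polr1b was at 0.68 (SE 0.24, adjusted p = 0.0457), Nop56 at 0.65, Nop58 at 0.44, Ncl at -0.04, Npm1 at -0.46, Fbl at -0.16 and Ubtf at -0.07. The members' median was 0.20, beside 0.01 over all genes tested. The call of Polr1a was kept in all 21 alternatives tried, each library left out included, where its log2 fold change ran from 1.73 to 2.57.

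P3 against P1 sets high against low transgene brightness at low OSCAR ratio. Polr1b (2.24, adjusted p = 0.00137), Polr1a (1.96, adjusted p = 0.00233) and Nop58 (1.65, adjusted p = 0.00178) were higher in the libraries labelled P3 on the log2 scale, 3 of 8 members, while 8.01% of all genes tested were higher. Nop56 at 1.25, Ncl at 1.19 and Npm1 at 1.16 did not pass, nor did Fbl at 0.77 and Ubtf at 0.08. With only the libraries of P3 and P1 in the fit, 0 genes and 0 members were called. P3 replicate 1 was below replicate 2 for 6 of these genes in CPM, and above it for Polr1a and Polr1b. Without P3 replicate 1, 6 members and 2126 genes were called, and without P3 replicate 2, 3 members and 1259 genes. All 3 calls of members were lost without P1 replicate 1, and that of Nop58 without P1 replicate 2. Calls over all genes tested also fell in both fits, and further on only their range over all libraries left out is given. Over the 20 alternatives, each library left out included, the log2 fold change of Polr1b ran from 1.82 to 2.49. That of Polr1a ran from 1.54 to 2.365, and that of Nop58 from 1.35 to 1.90. Within counts on nuclear genes alone, the 8 genes took 0.0974% and 0.181% in P3, against 0.0469% and 0.0443% in P1.

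P2 against P3 sets the OSCAR high, EF1a low gate against the OSCAR low, EF1a high gate. Polr1b (-1.56, adjusted p = 0.00125), Nop58 (-1.21, adjusted p = 0.00353) and Npm1 (-1.62, adjusted p = 0.00714) were lower in the libraries labelled P2, 3 of 8 members, where 10.6% of all genes tested were lower. Ncl was at -1.23 (adjusted p = 0.0101), Nop56 at -0.60, Fbl at -0.93, Ubtf at -0.15 and Polr1a at 0.22. A fit of the P2 and P3 libraries alone called 1093 genes and 0 members. All 3 calls of members were lost without P2 replicate 2, and those of Nop58 and Npm1 without P2 replicate 1 or P3 replicate 2. Many other genes stayed called in these fits, within the range given further on. Over the 20 alternatives, each library left out included, the log2 fold change of Polr1b ran from -1.749 to -1.405. That of Nop58 ran from -1.455 to -0.934, and that of Npm1 from -2.065 to -0.992. Without P3 replicate 1, Ncl was called too. The call of Npm1 was also lost when any 1 library of P1, P4 or P5 was left out.

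P5 against P4 sets high against low transgene brightness at medium OSCAR ratio. None of the 8 genes was called by edgeR, with log2 fold changes from -0.57 for Fbl to 0.05 for Ubtf, and 0% of all genes tested passed. At an unadjusted p under 0.05 there were 350 genes and 0 members, and DESeq2 called 28 genes and 0 members. P5 against P3, medium against low OSCAR ratio at high brightness, also had 0 members and 0% of all genes called by edgeR. At an unadjusted p under 0.05 it had 1587 genes and 0 members, and DESeq2 called 37 genes and 0 members. The members' values ran from -0.04 for Polr1b to 0.67 for Fbl, and Nop56 was at 0.61 (SE 0.31, adjusted p = 0.469).

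Whether the difference by transgene brightness depends on the OSCAR ratio was tested as the change from P4 to P5 minus that from P1 to P3. The contrast takes the label P3 as given: Polr1b was at 2.24 in P3 against P1, at 0.68 in P2 against P1 and at -0.01 in P5 against P4. Polr1b passed, at -2.25 on the log2 scale (SE 0.32, adjusted p = 0.00888), where 0.328% of all genes tested were below 0 and called. Polr1a at -2.09 (adjusted p = 0.0133) and Nop58 at -1.65 (adjusted p = 0.0133) came near, Ncl, Npm1, Fbl and Nop56 were between -1.18 and -1.34, and Ubtf was at -0.03. The 127 other nucleolar genes described further on had a median of -1.15, with 2 called, both below 0. DESeq2 called 1933 genes and 3 members here, and edgeR with the replicate number as a block called 593 and 2. With total counts in place of TMM, edgeR called 58 genes and 0 members. The call of Polr1b was lost whichever of the 10 libraries was left out, with adjusted p up to 0.0602, and 0 of all genes tested passed in these fits. Its log2 value lay between -2.50 and -1.94 in all 15 alternatives. Over the 5 populations as a whole, the test of any difference called 6 of the 8 members, all but Fbl and Ubtf, and 36.3% of all genes tested. Without a library, that count of members fell to as few as 2, without P1 replicate 1, and was 3 without P1 replicate 2.

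The size of these differences depends on how libraries are scaled, since TMM factors ran from 0.496 in P3 replicate 1 to 1.56 in P4 replicate 2. With total counts in place of TMM, the median log2 fold change of all genes was 0.75 in P4 against P1, -1.07 in P2 against P4, -0.43 in P2 against P1, -0.39 in P3 against P1, 0.92 in P5 against P3, -0.10 in P5 against P4 and 0.29 in the interaction. With the upper quartile it was 0.33 in P4 against P1, -0.06 in P2 against P4, 0.16 in P2 against P1, 0.11 in P3 against P1 and -0.18 in the interaction. Without mitochondrial genes it was 0.26 in P4 against P1, 0.16 in P2 against P1 and -0.09 in the interaction. Relative to that median, in P4 against P1, Polr1b was 2.15 above it with TMM and 2.15 with total counts, and Ubtf was -0.02 from it with both. On the scale of total counts itself, Polr1a was at -1.19 in P2 against P4, not called, and Ubtf was at 0.73 in P4 against P1 and -1.24 in P2 against P4. Its sign turned with total counts in P3 against P1 (-0.28), P5 against P4 (-0.05) and the interaction (0.23), and its small values turned with other scalings too. With total counts the members' median in P2 against P1 also turned, from 0.20 to -0.25. The 5 members called in P4 against P1 were called with each of the 4 other scalings. In P2 against P4, Ncl, Nop58 and Polr1b were, and Npm1 was lost with DESeq2's size factors. In P3 against P1 with total counts Polr1b alone was called, and in P2 against P3 likewise. In P2 against P3, Npm1 was also lost with DESeq2's size factors and without mitochondrial genes. The call of Polr1b in the interaction was lost with total counts.

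RNA polymerase I has further subunits, some of its own and some shared with other polymerases. Of the 13 subunit genes tested, Polr1a and Polr1b included, 5 were higher in P4 than in P1 and 0 lower, with a list median of 0.51. Besides those already named, Cd3eap (also called Polr1g) rose by 2.45 on the log2 scale, Polr1e by 2.03 and the shared subunit Polr2h by 1.41. Polr1c at 0.91, Twistnb at 0.51, Polr1d at 0.37, Polr2l at 0.36, Polr2e at 0.35, Polr2f at 0.26, Znrd1 at -0.70 and Polr2k at -1.21 did not pass. Of the 13, Polr1b alone was called in P2 against P4, and Cd3eap was at -1.28, Polr2h at -1.20, Polr1c at -1.04, Polr1d at -0.92 and Polr1e at -0.68. Twistnb was at -0.53, which was also the list median, Polr2l at -0.46, Polr2e at -0.29, Znrd1 at -0.26, Polr2f at 0.12 and Polr2k at 0.18.

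Among 6 tested factors of polymerase I initiation and termination, Taf1c, a subunit of the selectivity factor SL1, was the 1 gene higher in P4 than in P1, by 1.28 on the log2 scale. Taf1d was at 1.46, Taf1b at 1.09, Rrn3, which brings the polymerase to the promoter, at 0.31, and the termination factor Ttf1 at -0.05. The list median was 0.70. None of the 6 was called in P2 against P4, where the median was -0.26. Taf1c shares 480 exon bases with a gene on the opposite strand, so its counts are uncertain, and the same holds for Cd3eap with 106 bases and Polr2h with 82.

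The box C/D list of 11 core and assembly genes includes the members Fbl, Nop56 and Nop58. It had 3 higher in P4 than in P1, Nop56 and Nop58 among them, and a median of 1.31. The 1 gene lower in P2 than in P4 was Nop58, with a list median of -1.11. The assembly ATPase Ruvbl1 was at 1.29 and -1.90, Znhit3 at 1.31 and -0.10, Rpap3 at 1.05 and 0.28, Nufip1 at 0.66 and -0.95, and Pih1d1 at -0.70 and -0.78 in these comparisons, all short of the threshold. The box H/ACA proteins guide the conversion of uridine to pseudouridine, and 3 of 6 rose in P4 against P1: Gar1 by 2.19, the pseudouridine synthase Dkc1 by 1.82 and Nhp2 by 1.68. Shq1 at 1.70, Naf1 at 1.36 and Nop10 at 1.22 did not pass. Dkc1 at -2.07 and Nhp2 at -1.95 were called in P2 against P4, and the other 4 ran from -1.44 for Gar1 to -0.32 for Nop10. Dkc1 had 19.3 and 15.9 CPM for P1, 17.4 and 12.5 for P2, 54.7 and 78.2 for P3, 60.9 and 63.4 for P4, and 62.1 and 64.1 for P5, so that P1 and P2 lay below the other populations, as for Ncl.

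**Figure D3:**
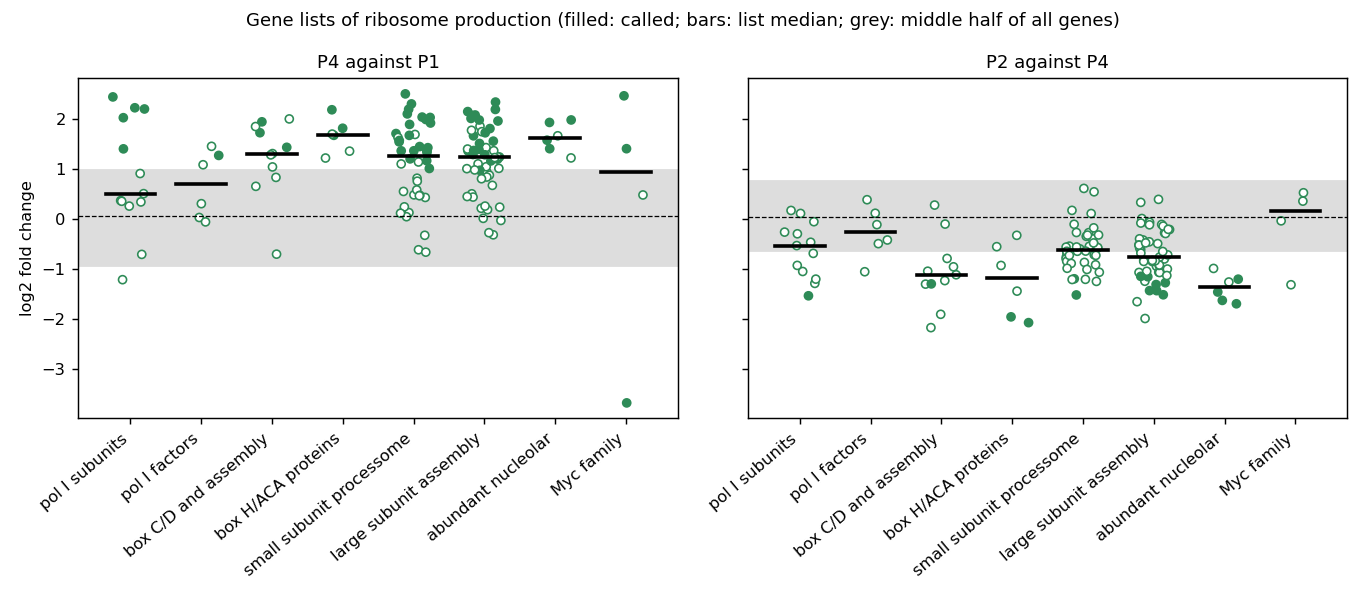
Log2 fold changes of the genes of 8 lists in P4 against P1 and P2 against P4; filled points passed an adjusted p of 0.01, bars mark list medians and the grey band the middle 50% of all genes tested. The small subunit processome has a median of 1.27 in P4 against P1 and -0.61 in P2 against P4, and Max lies apart from the rest of the Myc family at -3.67 in P4 against P1.

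The lists of ribosome assembly went the same way in P4 against P1. The small subunit processome, which cuts out the small subunit's RNA, had 21 of 42 genes higher and 0 lower, with a median of 1.27. Its largest values were those of Utp14a (2.51) and Rrp9 (2.31), both called, and its lowest those of Rrp36 (-0.66) and Utp23 (-0.61), not called. Large subunit assembly had 22 of 51 higher and 0 lower, with a median of 1.24, from Mdn1 (2.34) and Nle1 (2.20), both called, down to Pak1ip1 (-0.27) and Rpf1 (-0.31). Of 6 abundant nucleolar proteins, 4 were higher: Ncl, Mybbp1a (1.99), Nolc1 (1.94) and Tcof1 (1.58), with Npm3 at 1.67 and Npm1 short of the threshold. In P3 against P1, 17 of 42 genes of the processome, 14 of 51 of large subunit assembly and 4 of 6 box H/ACA genes were higher in the libraries labelled P3.

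Of the 6 abundant nucleolar proteins, 4 were lower in P2 against P4: the members Ncl and Npm1, with Tcof1 (-1.62) and Mybbp1a (-1.20). Npm3 at -1.25 and Nolc1 at -0.98 did not pass. Of the small subunit processome 2 of 42 genes were lower in the libraries labelled P2, Noc4l (-1.51) among them, with a median of -0.61, beside 6.31% of all genes tested. Utp20 was at -1.24, Utp23 at 0.62 and Mphosph10 at 0.55. Of large subunit assembly 7 of 51 were lower, with a median of -0.76, Mdn1 at -1.43 among them; Rrp15 at -1.98 and Rpf2 at -1.65 did not pass, and Gnl3l was at 0.40 and Surf6 at 0.34. In P2 against P1, 8 of 42 processome genes and 4 of 51 of large subunit assembly were higher and 0 of either lower, beside 13.9% of all genes tested higher. Over the 127 nucleolar genes of the lists apart from the 8, 54 were higher and 0 lower in P4 against P1 (42.5%, median 1.25), and 0 were higher and 13 lower in P2 against P4 (10.2%, median -0.68). In P3 against P1, 43 were higher (33.9%, median 1.13), and in P2 against P1, 12 were higher and 1 lower (9.45% and 0.787%, median 0.41), both below the shares of all genes tested, 13.9% and 15.2%. P4 against P1 and P3 against P1 share the P1 libraries. The counts rest on few libraries: without either P4 library, 0 genes of the whole table were called in P4 against P1.

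Myc, a transcription factor that drives ribosome production in dividing cells, had 10.2 and 14.9 CPM for P1, 34.4 and 21.9 for P2, 15.4 and 58.2 for P3, 59.3 and 79.4 for P4, and 58.7 and 73.1 for P5. It rose in P4 against P1, by 2.47 on the log2 scale (SE 0.52, adjusted p = 0.00552), and was at -1.31 (adjusted p = 0.0782) in P2 against P4. Its partner Max went the other way, with 612 and 524 CPM in P1 and 34.7 to 101 in the other 8 libraries, and a log2 fold change of -3.67 (SE 0.50, adjusted p = 0.00124) in P4 against P1. Mycl1 rose by 1.41 in the same comparison, and Mycn was at 0.49. None of the 4 was called in P2 against P4. Besides the genes given above, Dkc1, Mybbp1a, Nhp2, Nle1, Npm3, Pak1ip1, Pih1d1, Rrp9, Taf1d, Utp14a and Znhit3 share exon bases with a gene on the opposite strand, so their counts are uncertain.

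Over the 10 libraries, the log2 CPM of Ncl was most like that of Nop58 (Pearson r 0.971) and of Npm1 (0.970), and that of Polr1b most like Nop58 (0.956). Polr1a had r of 0.717 with Polr1b and 0.351 with Npm1, and 0.142 with Ubtf. The libraries fall into 5 populations and share their scaling, so these values only describe them. Of 7440 other genes with a mean log2 CPM of at least 4, those closest to the mean scaled profile of the 8 were Mrps5 (r 0.996), Vars2 (0.992), Cdk4 (0.990), Atic (0.989) and Prmt5 (0.989), over n = 10 libraries. Mrps5 encodes a mitochondrial ribosomal protein, Vars2 the mitochondrial valyl-tRNA synthetase, Cdk4 a kinase of the G1 phase, Atic an enzyme of purine synthesis and Prmt5 an arginine methyltransferase. Their log2 fold changes in P4 against P1 were 1.39, 1.93, 1.61, 1.90 and 1.97, all called, and nothing is read from this, since the genes were picked for their likeness over the same libraries.

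**Figure D4:**
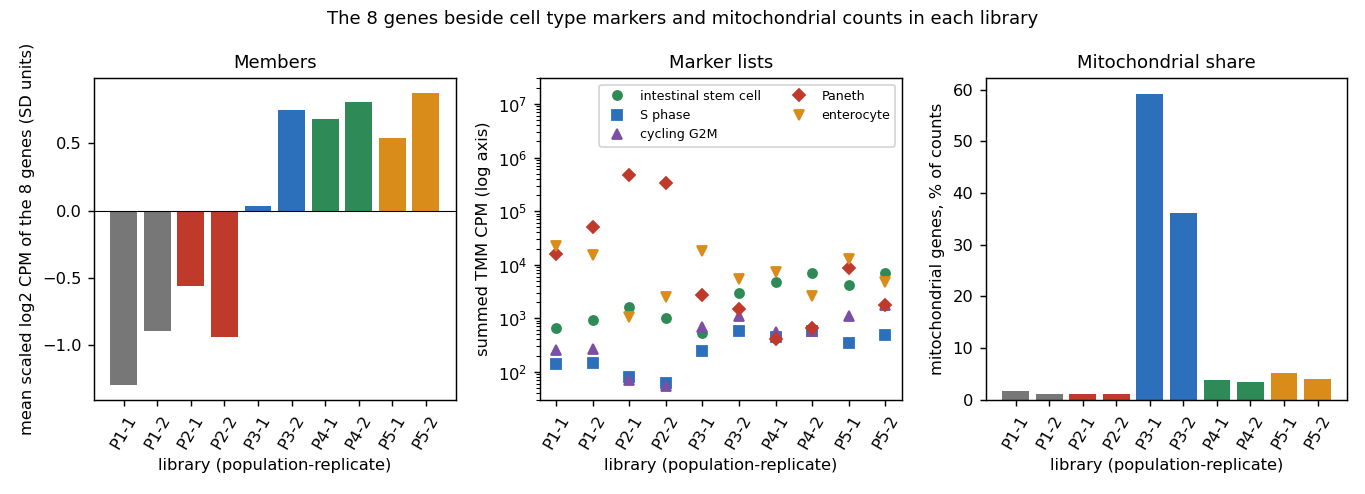
The mean scaled log2 CPM of the 8 genes (left, in SD units), the summed CPM of 5 marker lists (middle, log axis) and the mitochondrial share of counts (right) in each library, named by population and replicate. The members' mean was below 0 in the 4 libraries of P1 and P2 and above 0 in the other 6, with P3 replicate 1 at 0.0367; mitochondrial genes took 59.2% of that library.

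Markers of cell types and of the cell cycle are given for comparison. The gene said to lead a list has the highest mean CPM over all 10 libraries, and others can be higher in a single population. The 6 S phase genes, Mcm6 the most abundant, summed to 141 and 143 CPM for P1, 78.0 and 62.0 for P2, 248 and 566 for P3, 453 and 570.2 for P4, and 347 and 484 for P5. Of them 5 were higher in P4 than in P1 and 5 lower in P2 than in P4, and none was at 0 in any library. The 6 G2M genes, with Mki67 on top, summed to 252 and 264 CPM for P1, 68.6 and 53.8 for P2, 675 and 1113 for P3, 557 and 566 for P4, and 1079 and 1755 for P5. Thus both sums were lowest in P2, where Ccnb1 was at 0 in replicate 2. Between P2 and P1, 0 of the 6 S phase genes were called, and 5 of the 6 G2M genes were lower in P2. Of the 6 G2M genes 5 were lower in P2 against P4, and in P4 against P1, 1 was higher.

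The 6 stem cell markers, led by Olfm4, summed to 660.0 and 936 CPM for P1, 1625 and 1020.4 for P2, 529 and 2995 for P3, 4821 and 7101 for P4, and 4239 and 6984 for P5. The sums were highest in P4 and P5, where Nop56 was highest too. Of the 6 genes 3 were higher in P4 than in P1 and 1 lower in P2 than in P4. Single markers differed from the sum. Olfm4 had 468 and 411 CPM in P2, beside 3486 and 5603 in P4. Lgr5 had 80.5 and 81.2 CPM in P2, beside 94.6 and 115 in P4 and 72.0 and 104 in P5. The 5 Paneth markers, led by Lyz1, summed to 15910.1 and 51225 CPM for P1, 469790 and 332504 for P2, 2722 and 1455 for P3, 405 and 669 for P4, and 8808 and 1769 for P5. All 5 were lower in P4 than in P1 and higher in P2 than in P4. The 7 enterocyte markers, led by Sis, summed to 22401 and 14939 CPM for P1, 1042 and 2448 for P2, and 17856 and 5286 for P3. For P4 the sums were 7395 and 2569.6, and for P5 12729.5 and 4803. Within P1, Sis was at 1612 and 852 CPM, below Krt20 at 6425.5 and 5708.

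The 5 goblet markers, led by Fcgbp, summed to 2139 and 2882 CPM for P1, 35366 and 81119 for P2, 1379 and 2803 for P3, 7766 and 6373 for P4, and 6299.6 and 5268 for P5. Enteroendocrine markers, led by Chgb, were at 2495 and 6096 CPM in P2 and between 10.7 and 372 elsewhere, with Pax6 and Scg5 at 0 in P3 replicate 1. Tuft markers, led by Trpm5, were at 328 and 616 CPM in P2 and between 9.10 and 134 elsewhere, with Pou2f3 at 0 in both libraries labelled P3. The 5 lymphocyte markers, led by Gzma, summed to 819 and 243 CPM in P1, 149 and 2.66 in P3, 15.2 and 22.5 in P2, and at most 3.90 in P4 and P5, with 4 of the 5 genes at 0 in some library. P1 thus held lymphocyte, Paneth and enterocyte transcripts in an EpCAM+ gate. The part of cell types, of the cell cycle and of the mitochondrial share in the results for the 8 genes was not tested.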

How the data were processed

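The authors deposited raw counts of reads per gene, without normalization, for each of the 10 libraries. By the submitters' processing notes and the methods, reads were checked with FastQC 0.11.5, aligned to mm9 with TopHat2 2.1.0 and Bowtie, and counted on exons with HTSeq 0.11.2. Reads with several alignments, 11.6% to 41.7% of a library's total, were not counted. They were 28.2% to 41.7% in P2 and P3 and 11.6% to 15.0% in P1, P4 and P5. No-feature reads were 9.36% to 12.8% in P4 and P5 and 2.19% to 6.45% in P1, P2 and P3. The part of these shares in the results was not tested. Ambiguous reads were 0.425% to 1.39%, and counts on unnamed features 0.000192% to 0.000596%. Libraries held 3857612 to 6485823 counts on genes, so 3 counts are 4.63e-05% to 7.78e-05% (counting error only).

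The 206 names of ribosomal RNA genes were removed, and 33643 of 35006 names were found in the annotation. Counts were filtered with filterByExpr (13706 genes kept), scaled with TMM and fitted with edgeR 4.0.16 in R 4.3.3, with 5 population means over all 10 libraries (5 residual degrees of freedom). Contrasts were tested with the quasi-likelihood test, Benjamini-Hochberg adjustment over all genes tested and a threshold of 0.01. Standard errors were derived from the F statistics. The procedure was tested on simulated data. Tables were made with Python 3.11.15 and pandas 2.3.3. The log2 CPM used a prior count of 2. Windows of 75 bases were compared with the whole genome of the counts' build.

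Genes were named by rule: the 8 members; all genes of the lists of polymerase I subunits, polymerase I factors, box H/ACA proteins, abundant nucleolar proteins and Myc family; of the other 3 lists the 2 highest and 2 lowest in P2 against P4 and in P4 against P1; and the 5 genes most like the members' mean. Of 142 listed names 139 were found (Taf1a, Nop9 and Noc2l were not). The members and lists were chosen with earlier results of these data known. Alternatives were other scalings, no filter, DESeq2 1.42.0, a threshold of 0.05, the replicate number as a block, the compared populations alone, rRNA genes kept, mitochondrial genes removed and each library left out.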

Additional observations from a re-analysis of the deposited data

Results flagged for a closer look

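Polr1b was flagged because its difference by transgene brightness was not the same at medium and at low OSCAR ratio, the 1 member called in this test. The change from P4 to P5 minus that from P1 to P3 was -2.25 on the log2 scale (adjusted p = 0.00888 in edgeR's quasi-likelihood test). Polr1b was at 2.24 in P3 against P1 and at -0.01 in P5 against P4. In P2 against P1 it was at 0.68, so the value would be far smaller if the labels P2 and P3 were exchanged. Other genes leaned the same way, with Polr1a at -2.09 and a median of -1.15 over the 127 other nucleolar genes, 2 of them called. The test rests on the libraries labelled P3, and the call was lost when any library, those of P3 included, was left out. With total counts in place of TMM the call was lost as well.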

How the results depend on the processing

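No value of a member past the threshold changed sign in the alternatives run. Over all comparisons, 1098 member values kept their side of the threshold and their sign, 32 came to pass it, 79 ceased to pass it, and 62 values that were not called changed sign. The cause of these differences was not tested.

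In P4 against P1, total counts called 2123 genes, no filter 5026 and a threshold of 0.05 called 5777. In P2 against P4, total counts called 3159 genes, no filter 3500, DESeq2 3105 and the 0.05 threshold 3987. In P2 against P1 the 0.05 threshold called 6462 genes and 2 members. In P3 against P1, total counts called 1164 genes and 1 member, no filter 4005 and 6, DESeq2 3451 genes, the 2 populations alone 0 and 0, and the 0.05 threshold 4652 and 6. In P2 against P3, total counts called 1688 genes and 1 member, no filter 4439 genes, the 2 populations alone 1093 and 0, and the 0.05 threshold 5114 genes; Fbl could not be tested there with the 2 populations alone, having failed the filter. In P5 against P4, no filter called 194 genes and DESeq2 28. In P5 against P3, no filter called 302 genes, DESeq2 37 and the 0.05 threshold 1. In the interaction, DESeq2 called 1933 genes and 3 members, DESeq2's size factors 362 genes, total counts 58 and 0 members, and leaving out mitochondrial genes 375. The upper quartile, chosen after seeing the data, called 482.

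Leaving out each library in turn gave, as genes and members called, 0 to 4412 and 0 to 6 in P4 against P1, 320 to 2763 and 0 to 5 in P2 against P4, 1576 to 5046 and 1 in P2 against P1, 0 to 2126 and 0 to 6 in P3 against P1, and 1348 to 2605 and 0 to 4 in P2 against P3. It gave 0 in P5 against P4, 0 to 1 gene and 0 members in P5 against P3, 0 and 0 in the interaction (chosen after seeing the data), and 2657 to 6391 and 2 to 6 in the test of any difference. A lone library was then taken to vary like the other populations. Without both libraries labelled P3, also chosen after seeing the data, 4441 genes were called in P4 against P1, 2825 in P2 against P4, 5129 in P2 against P1 and 0 in P5 against P4.

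With the replicate number as a replicate block, 1 gene was called in P5 against P4, 4 in P5 against P3, and 593 genes and 2 members in the interaction. Elsewhere it called 3881 genes and 5 members in P4 against P1, 2391 and 4 in P2 against P4, 4519 and 1 in P2 against P1, 2597 and 3 in P3 against P1, 3231 and 3 in P2 against P3, and 5710 and 6 in the test of any difference. As a check, the departures from the mean of a population were correlated between libraries with 1 number, with r from -0.0598 for P2 and P3 to 0.554 for P4 and P5, and above 0 for all pairs of populations but P2 and P3. Whether the numbers pair the libraries is not known, and the main test did not pair them.

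Of the genes called, 40.3% were higher in P4 against P1 with TMM, 76.4% with total counts, 56.8% with the upper quartile and 53.1% without mitochondrial genes. In P2 against P4 the share higher was 55.9% with TMM and 9.37% with total counts, in P2 against P1 47.8% and 27.1%, and in P3 against P1 51.5% and 8.85%. In the interaction it was 59.5% with TMM, 86.2% with total counts, 34.2% with the upper quartile and 44.5% without mitochondrial genes. Fbl had the fewest counts of the members, 2 to 85 per library.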
